A study of Mus musculus with 6 samples.

Results

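The genes described here are 10 that work in efferocytosis, the removal of dying cells by phagocytes, and they were taken by symbol from the 55385 genes counted in each library. They are the receptor tyrosine kinases Tyro3, Axl and Mertk (the TAM receptors), the secreted proteins Gas6 and Pros1 that bridge these kinases to dying cells, and the receptors Timd4, Stab1, Stab2, Megf10 and Adgrb1. All 10 were found, and 9 passed edgeR's filter on low counts; Adgrb1 did not. RNA came from mammary tumors of female NeuT/ATTAC mice, which carry a constitutively active rat ErbB2 under the MMTV promoter and an FKBPv-caspase-8 fusion under the FABP4 promoter. The dimerizer AP20187, given by injection (0.4 mg/kg, beginning at 6 weeks of age), activates that caspase in fat cells, so that part of the mammary fat is replaced by fibrotic tissue. The 3 treated libraries are from mice that also received DMHCA, an agonist of the nuclear receptor LXR, mixed into the chow at 0.05%, or 100 mg/kg, beginning when the mice were 8 weeks old. The 3 control libraries carry a treatment label that can be read as AP20187 in its vehicle or as the vehicle alone, and the methods describe controls given AP20187. The tissue is labelled mammary gland fibrosis, and markers of luminal epithelium summed to 3500 to 5140 TPM per library (RSEM's level per transcript length and library size), against 336 to 1310 TPM for fibroblast markers.

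A dying cell exposes the lipid phosphatidylserine on its surface. Timd4, Stab1, Stab2 and Adgrb1 bind this lipid directly, while the TAM receptors reach it through Gas6 or protein S, the product of Pros1, whose vitamin K-dependent domains hold the lipid. Gas6 binds all of the TAM receptors, and protein S activates Tyro3 and Mertk. Macrophages use Mertk for routine clearance, Axl is raised in inflamed tissue, and Tyro3 is prominent in the nervous system and in several epithelia. Sterols from an engulfed cell activate LXR, and in macrophages LXR is known to induce Mertk.

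DMHCA libraries 1 and 3 were nearly identical. Their biological coefficient of variation, the variation beyond sampling noise, was 0.0326, while the other 5 pairs of libraries within a group had 0.374 to 0.573. They were counted as 1 sample, which leaves 3 control and 2 DMHCA samples. Total expected counts ran from 46358654 to 63420620 per library. The study describes tumors of separate mice in each group, and the labels give only numbers; p-values measure the spread between these samples. Control library 3 stood apart in its markers: leukocyte and lymphocyte markers summed to 297 TPM there and to 8.66 to 47.6 TPM elsewhere, and adipocyte markers to 914 TPM there, 123 and 203 TPM in the other controls and 68.6 to 68.8 TPM in the DMHCA libraries. In RNA from whole tissue, fewer cells of a type and less RNA per cell cannot be told apart.

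Since DMHCA acts on LXR, which binds DNA with RXR at a pair of AGGTCA half-sites with 4 bases between them, the sequences upstream of the genes were read first. RefSeq promoters of GRCm38.p6 (250 bases before to 50 bases after a start site) were found for 8 of the 10 genes. The full pair, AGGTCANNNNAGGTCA on either strand, was in 0 of the 8 promoters and in 5 of all 32851 (0.0152%). The half-site AGGTCA, on either strand, was in 2 of the 8, those of Timd4 and Stab2, against 16.3% of all promoters. Upstream sequence is shown for Tyro3, the gene whose groups separated, for Mertk, the receptor that LXR is known to induce, and for Timd4, which holds a half-site. Each line gives the + strand 5′ to 3′ and ends at the base before the RefSeq start. Capitals mark the half-site, and lower case throughout means that these letters were not in the stretch shown. For Tyro3 only the stretch after the last annotated exon in the window is printed (chr2:119799416-119799513, 98 bases). The Mertk stretch is chr2:128698665-128698914, and that of Timd4 is chr11:46810549-46810798.
Tyro3: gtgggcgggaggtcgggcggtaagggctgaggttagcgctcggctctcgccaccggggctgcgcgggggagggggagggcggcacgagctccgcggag
Mertk: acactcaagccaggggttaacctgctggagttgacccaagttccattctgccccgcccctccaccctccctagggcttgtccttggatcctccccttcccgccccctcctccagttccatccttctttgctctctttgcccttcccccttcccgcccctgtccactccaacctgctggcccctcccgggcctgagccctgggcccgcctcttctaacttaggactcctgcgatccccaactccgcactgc
Timd4: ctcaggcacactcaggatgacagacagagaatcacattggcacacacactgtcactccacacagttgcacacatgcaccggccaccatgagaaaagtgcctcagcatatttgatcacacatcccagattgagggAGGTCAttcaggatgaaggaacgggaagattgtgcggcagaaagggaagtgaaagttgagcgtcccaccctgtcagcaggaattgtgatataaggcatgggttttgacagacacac
The Tyro3 stretch held 13 CpG dinucleotides in 98 bases (77.6% G and C), Mertk 7 in 250 bases (63.6%) and Timd4 4 in 250 bases (50%). A match is a description of letters, not of a binding site.

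Per length, the bridging proteins were the most abundant of the 10 in control tumors. Gas6 averaged 91.9 ± 40.2 TPM and Pros1 84.4 ± 20.8 TPM (SD, n = 3), followed by Stab1 at 46.4 ± 16.2, Axl at 20.9 ± 7.17, Tyro3 at 5.88 ± 3.23, Timd4 at 5.33 ± 7.64 and Mertk at 3.42 ± 1.76 TPM. Stab2, Megf10 and Adgrb1 were near the limit of detection, at 0.257, 0.247 and 0.0867 TPM. The ranges of the control libraries separated Stab1 from Axl, Axl from Tyro3, and Mertk from Stab2. Other neighbours in this order overlapped. In the DMHCA samples the order from Gas6 to Tyro3 was the same, but Tyro3, at 17.3 ± 10.1 TPM (SD, n = 2), reached the range of Axl, at 21.1 ± 3.13 TPM.

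**Figure D1:**
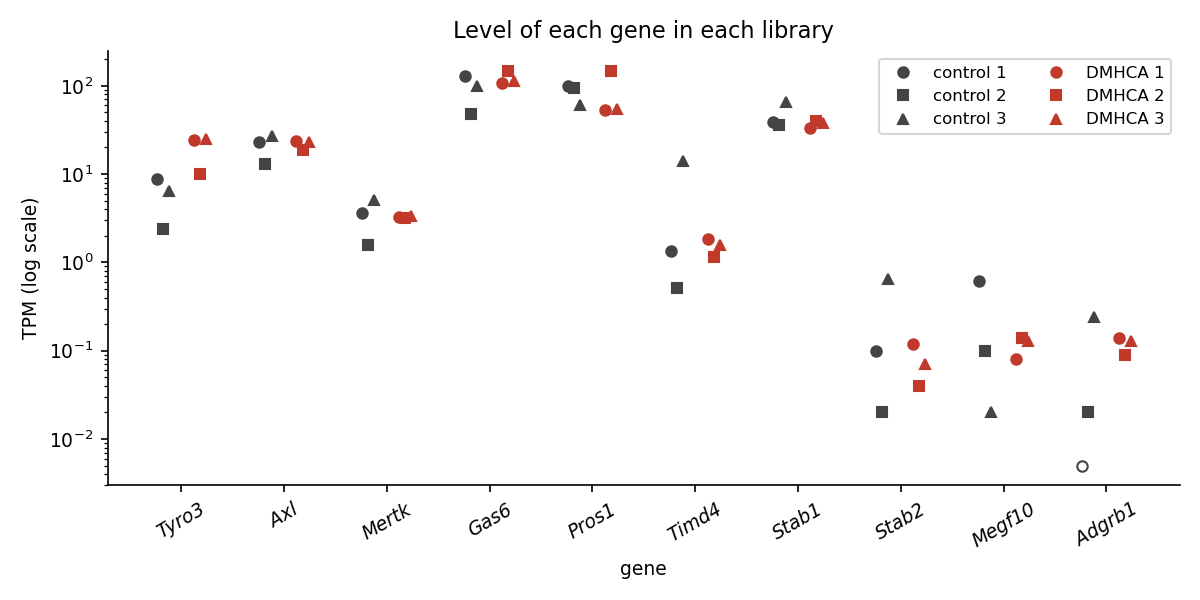
TPM on a log axis for each of the 10 genes, with 1 point per library (grey, control; red, DMHCA; marker shape, replicate number); the open point is an Adgrb1 value listed at 0, drawn at 0.005. Tyro3 is the gene whose 3 DMHCA points, 10.1 to 24.9 TPM, all sit above its controls, 2.41 to 8.79 TPM, while Timd4 and Stab2 each have a single high point in control library 3.

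Across all genes, edgeR's quasi-likelihood test gave an adjusted p under 0.05 to 0 of 19427 genes (0%) and to 0 of the 9 tested here. Before adjustment 1478 genes (7.61%) had a p under 0.05, 3.53% of all genes higher and 4.08% lower with DMHCA, and so did 1 of the 9, Tyro3, which was higher. Every DMHCA sample was above every control for 13.8% of all genes and for the same 1 of 9, and below every control for 12.2% of all genes and for 0 of 9. The log2 fold change was above 0 for 48% of all genes and for 4 of the 9. The median log2 fold change was -0.07 over the 9 and -0.03 over all genes. DESeq2, the tool the methods name, gave an adjusted p under 0.05 to 846 genes (3.98%, of all genes 1.29% higher with DMHCA) with the 6 libraries as separate samples and to 244 (1.22%) with the 5 samples. Among the 9 it called Tyro3 in the first of these fits and 0 in the second.

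Tyro3 (ENSMUSG00000027298, chromosome 2 of GRCm38, 119797733 to 119818104, + strand) encodes the TAM kinase best known from the nervous system. The study had also listed it on these libraries, in a table of diseases whose heading names genes downregulated by DMHCA. The same table holds Srebf1, which the study elsewhere reports as increased. Its level was 8.79, 2.41 and 6.44 TPM in control libraries 1, 2 and 3, from 1291, 498 and 934 reads. In DMHCA libraries 1, 2 and 3 it was 24.0, 10.1 and 24.9 TPM, from 3635, 1346 and 3541 reads. Every DMHCA library was above every control, but the lowest DMHCA library exceeded the highest control by only 1.15-fold, while the controls spanned 3.65-fold and the DMHCA samples 2.42-fold. In CPM (counts per library size, scaled by TMM, edgeR's correction for library composition), the means were 16.9 ± 7.34 in controls (SD, n = 3) and 46.1 ± 29.4 with DMHCA (SD, n = 2). The estimated log2 change was 1.45 (standard error 0.54, 95% interval 0.15 to 2.75), or 2.73-fold, with an unadjusted p of 0.0336 and an adjusted p of 0.644 by edgeR. With each library left out in turn it stayed between 1.14 (without control library 2, the lowest) and 2.03 (without DMHCA library 2). Counted as 6 separate libraries, DESeq2 gave 1.67 with an adjusted p of 0.0351, a fit that counts the near-identical pair as separate mice. Over all 16 alternatives the adjusted p of Tyro3 ran from 0.0351 to 0.959. The estimated length of the Tyro3 transcript differed little between libraries, from 3861 to 3984 bases, so reads and TPM moved alike.

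The region around Tyro3 and its closest patterns were described next. Of 22 tested genes that start within 500 kb of it, 18 had a log2 fold change above 0, with a median of 0.41, and 9 lay higher with DMHCA without overlap, where 13.8% of all genes do. Axl sits in a region with the same lean (18 of 21 neighbours above 0, median 0.66), although Axl itself did not share it. Mertk, also on chromosome 2, had 8 of 16 neighbours above 0 (median 0.07). Likeness of pattern was measured as the root mean square difference of log2 levels, each centred on its mean, over the 5 samples and among 189 listed genes. Nearest to Tyro3 were Abca1 (0.37), which exports cholesterol from cells, Mylip (0.45), a ubiquitin ligase for the LDL receptor, and Uvrag (0.54), an autophagy gene, while Tyro3 itself varied by 0.93 around its mean. With 5 samples, 2 of them treated, such nearness is a description.

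Axl (ENSMUSG00000002602, chromosome 7, 25757273 to 25788705, - strand), the TAM kinase for which Gas6 is the ligand, was the most abundant of the receptor kinases in every control. Its level was 23.1, 12.9 and 26.8 TPM in control libraries 1, 2 and 3 and 23.4, 18.9 and 23.2 TPM in DMHCA libraries 1, 2 and 3. The DMHCA values lay within the control range. The log2 fold change was -0.14 (standard error 0.30, 95% interval -0.86 to 0.59, adjusted p = 0.906 by edgeR); the sign turned in 4 of 16 alternatives. Nearest in pattern were Acta2 (0.08), an actin of contractile cells, the chemokine receptor gene Ccr2 (0.10) and the endothelial receptor gene Tek (0.11).

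Mertk (ENSMUSG00000014361, chromosome 2, 128698956 to 128802894, + strand) was the scarcest of the TAM receptors in both groups. It had 507, 295 and 644 reads (3.61, 1.57 and 5.07 TPM) in control libraries 1, 2 and 3 and 506, 428 and 479 reads (3.26, 3.19 and 3.36 TPM) in DMHCA libraries 1, 2 and 3. The DMHCA libraries were close together and inside the spread of the controls. The estimated log2 change was -0.07 (standard error 0.48, 95% interval -1.22 to 1.07, adjusted p = 0.970 by edgeR), so that a 2-fold change in either direction lies inside the interval. Macrophage markers, 12 of 12 of which were tested and 0 of which had an unadjusted p under 0.05, summed to 799 to 1010 TPM in controls, highest in control library 3, and 704 to 896 TPM with DMHCA. Nearest to Mertk were the macrophage scavenger receptor gene Msr1 (0.08), the collagen gene Col3a1 (0.08) and the lysosomal nuclease gene Dnase2a (0.16). The estimated Mertk transcript was longer in each DMHCA library, at 4013, 3942 and 3912 bases, than in controls, at 3698, 3628 and 3502 bases (exact permutation test, two-sided p = 0.10).

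The makeup of the TAM receptors was compared as shares of their summed TPM, which restate the levels given for each receptor. Tyro3 held 24.7%, 14.3% and 16.8% in control libraries 1, 2 and 3 and 47.3%, 31.4% and 48.4% in DMHCA libraries 1, 2 and 3. Axl held 65.1%, 76.4% and 69.9% in controls and 46.2%, 58.7% and 45.1% with DMHCA. The groups did not overlap for either share. The mean share of Tyro3 was higher by 21 percentage points and that of Axl lower, by -18.3 points, each with an exact permutation p of 0.10, two-sided, which is the smallest that 3 against 2 samples allow. Shares of 1 sum move against each other, so these are not separate results, and the level of Axl itself averaged 20.9 TPM in controls and 21.1 TPM with DMHCA. Mertk held 10.9% ± 2.08 in controls (SD, n = 3) and 8.20% ± 2.43 with DMHCA (SD, n = 2), and these overlapped (exact permutation p = 0.40). In DMHCA libraries 1 and 3 Tyro3 was level with or above Axl, whereas in DMHCA library 2 Axl was still the larger. The summed TPM of the receptors overlapped between groups, at 30.2 ± 11.6 in controls and 41.6 ± 13.4 with DMHCA (exact permutation p = 0.60).

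**Figure D2:**
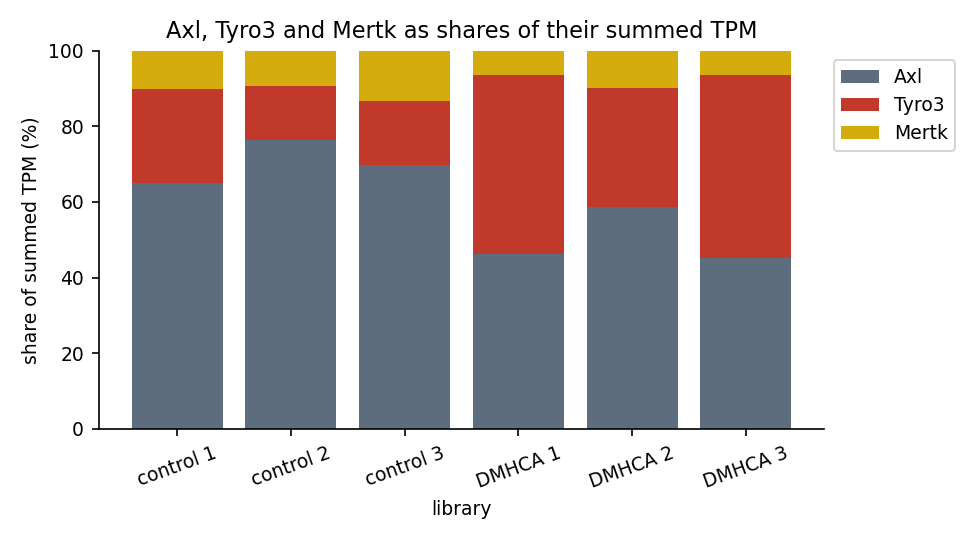
Share of the summed TPM of Axl, Tyro3 and Mertk (percent, stacked bars from 0) in each of the 6 libraries. The Tyro3 segment spans 14.3% to 24.7% in the controls and 31.4% to 48.4% in the DMHCA libraries, and DMHCA libraries 1 and 3 are counted as 1 sample.

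Gas6 (ENSMUSG00000031451, chromosome 8, 13465374 to 13494490, - strand), the ligand of all TAM receptors, was measured at 127.5, 48.3 and 99.7 TPM in control libraries 1, 2 and 3. The DMHCA libraries held 108.8, 148.8 and 113.4 TPM. Control library 2 was low, and the remaining values overlapped between groups. The log2 fold change was 0.35 (standard error 0.35, 95% interval -0.50 to 1.19, adjusted p = 0.779 by edgeR) and became 0.11 without control library 2. Its exons overlap those of Tmem255b on the opposite strand, and the sources used here do not say whether strand was used in counting. Nearest in pattern were Sirpa (0.14), the receptor for the do-not-eat-me signal Cd47, the endocytic receptor gene Lrp1 (0.15) and the LXR gene Nr1h2 (0.18).

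Pros1 (ENSMUSG00000022912, chromosome 16, 62854307 to 62929346, + strand), which encodes protein S, differed more between the DMHCA samples than between groups. It stood at 98.6, 94.1 and 60.6 TPM in control libraries 1, 2 and 3 and at 52.6, 148.5 and 54.9 TPM in DMHCA libraries 1, 2 and 3. DMHCA library 2 was the highest of all and exceeded DMHCA libraries 1 and 3 by 2.76-fold, and these were the lowest. The estimated log2 change was 0.00 (standard error 0.49, 95% interval -1.18 to 1.18), a mean that describes neither DMHCA sample. Among the nearest in pattern were the engulfment receptor gene Megf11 (0.22) and Thbs1 (0.24), a bridging protein of the matrix. Gas6 accordingly held 67.4% of the summed Gas6 and Pros1 TPM in DMHCA libraries 1 and 3 and 50% in DMHCA library 2, against 33.9% to 62.2% in controls (exact permutation p = 0.70).

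Timd4 (ENSMUSG00000055546, chromosome 11, 46810800 to 46844332, + strand) encodes Tim-4, a phosphatidylserine receptor of resident macrophages and of macrophages in lymphoid tissue. Control library 3 alone held 1080 reads (14.1 TPM), 7.64-fold more TPM than any other library. The other controls had 106 and 55 reads (1.34 and 0.51 TPM), and DMHCA libraries 1, 2 and 3 had 149, 81 and 120 reads (1.85, 1.14 and 1.57 TPM). Without that library the groups were alike in range. The log2 fold change was -2.02 (standard error 1.35, 95% interval -5.26 to 1.22, adjusted p = 0.692 by edgeR) and became 0.49 without control library 3. The same library was the highest for B cell markers, with Cd79a at 102 TPM there and 0.06 to 10.8 TPM elsewhere, and for Ccl21a, a chemokine of lymphatic vessels and lymph nodes, at 245 TPM against 0.32 to 26.1 TPM elsewhere. Of 7 leukocyte and lymphocyte markers, 7 were tested and 3 had an unadjusted p under 0.05 with DMHCA lower, against 4.08% of all genes, and with overlapping groups, among them the B cell genes Cd79a and Ms4a1; their part in the Timd4 difference was not tested. The 6 markers of resident macrophages (5 tested) also summed highest there, to 54.8 TPM against 19.3 and 25.9 TPM in the other controls and 28.8 to 35.7 TPM with DMHCA. Marco (17.0 TPM, 0.03 to 2.67 TPM elsewhere) and Folr2 (29.0 TPM, 13.2 to 23.8 TPM elsewhere) were highest in control library 3, and the liver macrophage marker Clec4f was at 0.12 TPM there and listed at 0 in the other libraries. Cd5l was highest in control library 1 (7.34 TPM), and Vsig4 was 0.51 to 0.80 TPM in controls and 1.5 to 1.81 TPM with DMHCA. Nearest to Timd4 were Ly6c2 (0.40), Flt3 (0.42) and Cd4 (0.46), genes of monocytes, dendritic cell precursors and helper T cells.

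Stab2 (ENSMUSG00000035459, chromosome 10, 86841198 to 87008025, - strand), a scavenger and hyaluronan receptor of sinusoidal endothelium, followed the same library. It had 15, 5 and 109 reads (0.10, 0.02 and 0.65 TPM) in control libraries 1, 2 and 3 and 16, 5 and 13 reads (0.12, 0.04 and 0.07 TPM) in DMHCA libraries 1, 2 and 3. Outside control library 3 no library had more than 16 reads, so differences among them were not detectable at this depth. The log2 fold change of -2.17 (standard error 1.40, 95% interval -5.52 to 1.19, adjusted p = 0.684 by edgeR) became 0.07 without control library 3. Lymphatic endothelial markers, 5 of 5 tested and 0 with an unadjusted p under 0.05, summed to 20.6, 42.9 and 250 TPM in controls, with the last in library 3, and to 13.1 to 88.4 TPM with DMHCA. Ccl21a made up nearly all of the sum in control library 3, while Prox1, which defines lymphatic endothelium, was at 0.97 TPM there and at 0.96 and 1.05 TPM in DMHCA libraries 1 and 3. The 88.4 TPM belonged to DMHCA library 2, where Reln was at 85.6 TPM and Prox1 at 0.02 TPM. In control library 2, with the sum of 20.6 TPM, Reln was at 19.5 TPM. The part of lymphatic endothelium in the Stab2 difference was not tested. Nearest to Stab2 were Cd36 (0.20), a fatty acid and scavenger receptor gene, the complement gene C3 (0.24) and the matrix gene Dcn (0.28). A noncoding gene, Gm16268, overlaps Stab2 exons on the opposite strand.

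**Figure D3:**
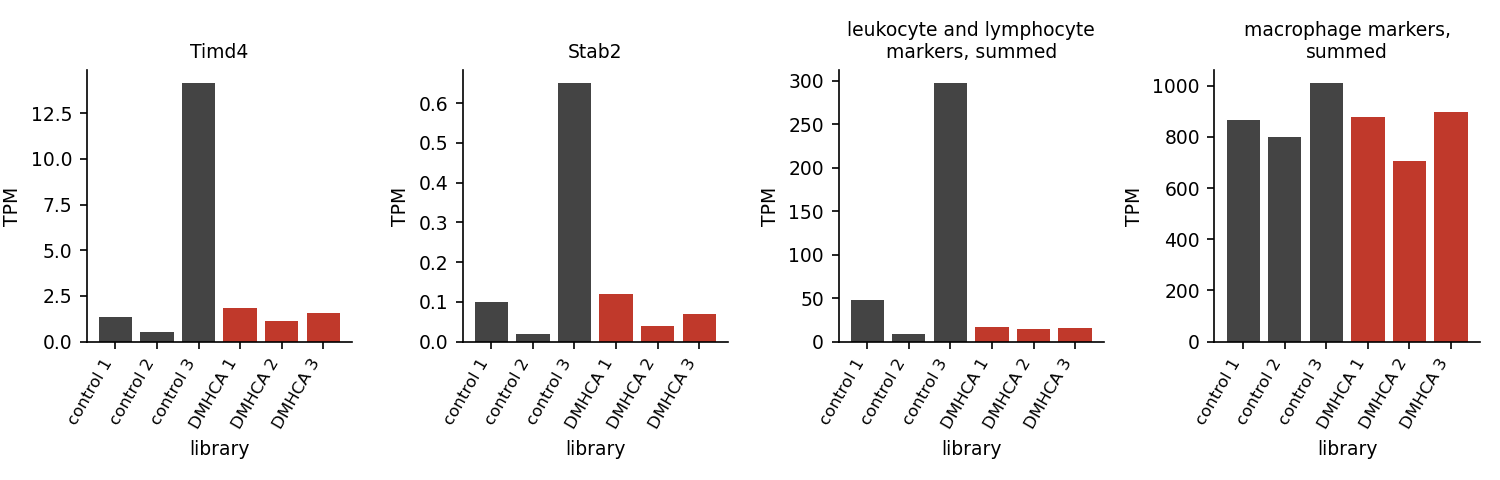
TPM of Timd4, of Stab2, of 7 leukocyte and lymphocyte markers summed and of 12 macrophage markers summed, as bars from 0 for each library (grey, control; red, DMHCA). All of the panels are highest in control library 3 (14.1, 0.65, 297 and 1010 TPM), and the macrophage sum spans 704 to 896 TPM in the other libraries.

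Stab1 (ENSMUSG00000042286, chromosome 14, 31139013 to 31168641, - strand), a scavenger receptor of macrophages and sinusoidal endothelium, gave opposite directions in reads and in TPM. CPM before TMM scaling was 55.0, 37.7 and 75.6 in control libraries 1, 2 and 3 and 66.8, 64.8 and 65.1 in DMHCA libraries 1, 2 and 3. TPM was 38.5, 35.8 and 65.1 in controls and 33.0, 39.5 and 38.1 with DMHCA. The groups overlapped on both scales. From counts the log2 fold change was 0.24 (standard error 0.29, 95% interval -0.45 to 0.93, adjusted p = 0.808 by edgeR), and on log2(TPM + 1) it was -0.25 (adjusted p = 0.801 by limma). The length that RSEM assigns to the gene, a mean over its transcripts weighted by their estimated abundance, was 2113, 1400 and 1579 bases in controls and 2954, 2605 and 2516 bases with DMHCA. It was longer in every DMHCA library than in every control, by 1.57-fold on average (1697 ± 371 bases, SD, n = 3, against 2670 ± 92.2 bases, SD, n = 2; exact permutation p = 0.20, two-sided). Among 14255 tested genes whose length varied between samples, 11.1% were longer with DMHCA without overlap and 14.7% shorter, and among the 7 such genes of this group 2 were longer (Stab1 and Mertk) and 0 shorter. A ratio as large as that of Stab1 was reached by 58 of all genes tested (0.299%), Stab1 included. Stab1 has 13 annotated transcripts, 3 of them protein-coding, and its exons overlap Nt5dc2 on the opposite strand. The comparison of lengths was chosen after the values were seen. Among the nearest in pattern were the endothelial transcription factor gene Erg (0.09) and the GTPase gene Rhog (0.14).

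**Figure D4:**
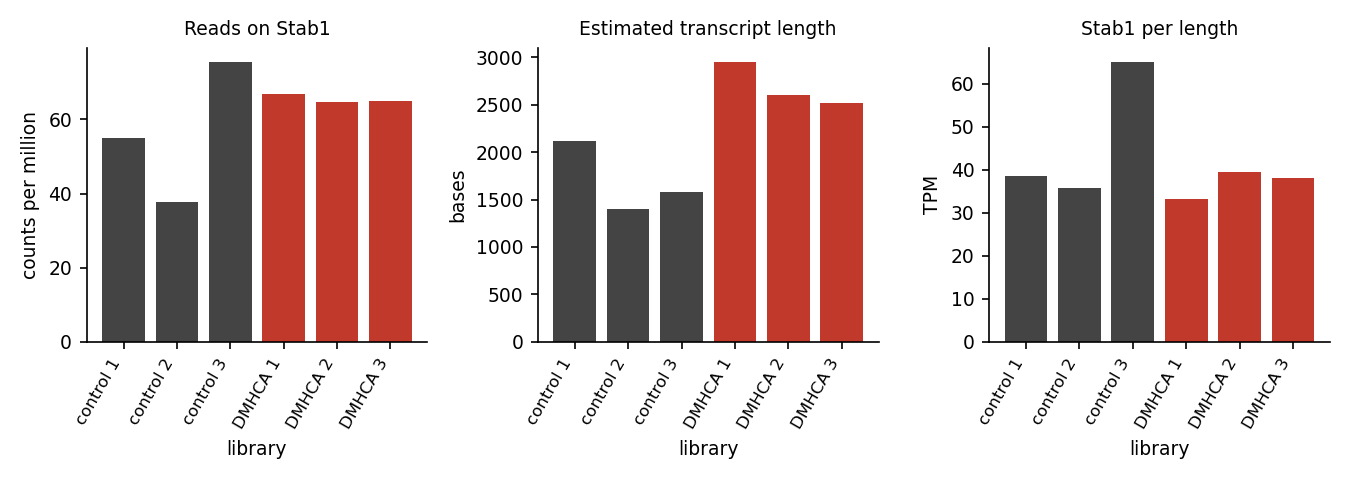
Stab1 in each library as CPM before TMM scaling, as the transcript length estimated by RSEM in bases, and as TPM (bars from 0; grey, control; red, DMHCA). Every DMHCA bar in the length panel, 2516 to 2954 bases, is above every control bar, 1400 to 2113 bases, and the groups overlap in the other panels.

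Megf10 and Adgrb1 were, with Stab2, the scarcest of the 10. Megf10 (ENSMUSG00000024593, chromosome 18, 57133090 to 57297467, + strand), an engulfment receptor of glia and muscle satellite cells, had 179, 40 and 6 reads in control libraries 1, 2 and 3 and 24, 37 and 37 in DMHCA libraries 1, 2 and 3. Control library 1 exceeded the highest other library by 4.43-fold in TPM. The log2 fold change of -1.09 (standard error 1.20, 95% interval -3.97 to 1.80, adjusted p = 0.794 by edgeR) became 0.61 without that library. Markers of neural and glial cells summed to 354 TPM in control library 1, below the 357 to 429 TPM of the DMHCA libraries, and markers of skeletal muscle and satellite cells to 310 TPM, the lowest of the controls, so neither list peaked where Megf10 did. Nearest to Megf10 were Cd5l (0.81), P2ry2 (0.87) and Gfap (0.89), all far apart from it. Adgrb1 (ENSMUSG00000034730, chromosome 15, 74516195 to 74589465, + strand), the receptor BAI1, had 1, 2 and 8 reads in controls and 9, 4 and 10 with DMHCA, and at this depth no difference was detectable.

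**Figure D5:**
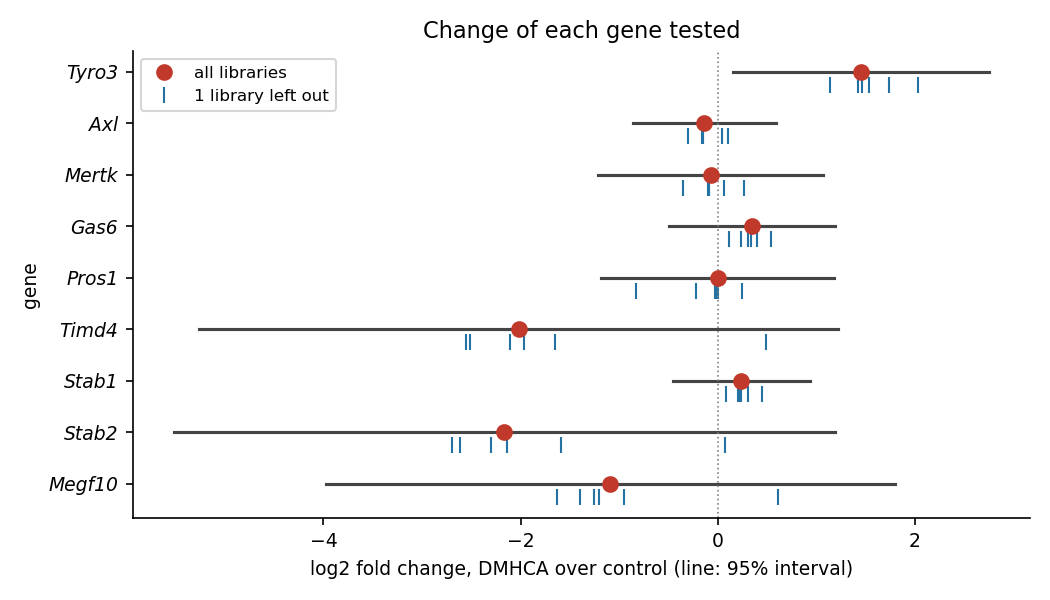
Log2 fold change of DMHCA over control for the 9 genes tested (red points, edgeR on 3 control and 2 DMHCA samples; grey lines, 95% interval; blue ticks, the value with 1 library left out). The interval of Tyro3, 0.15 to 2.75, is the only one of the 9 that does not include 0, before any adjustment for 19427 genes, and the ticks of Timd4 and Stab2 to the right of 0 leave out control library 3.

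The other genes of the engulfment pathway were read from 8 lists of 115 genes, of which 111 were tested. Adjusted p was under 0.05 for 0 of them by edgeR. Before adjustment p was under 0.05 for 9 higher and 8 lower genes, 15.3% of the 111, where all genes gave 7.61%, and the samples did not overlap for 17 higher and 13 lower of the 111, shares near the 13.8% and 12.2% of all genes. Several of the listed genes were reported by the study from these same libraries, so their count is not independent evidence.

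Among sensors that act downstream of engulfment (nuclear receptors and their targets), 9 of 11 were higher, against 48% of all genes, with a median log2 fold change of 0.59. Before adjustment 4 higher genes had a p under 0.05 (3.53% of all genes were so called), which are the cholesterol exporter gene Abca1 (1.36, standard error 0.35), Nr4a1 (1.25, standard error 0.41), Mylip and Ppard, and 1 lower gene did (4.08% of all genes), Nr1h3, which encodes LXRα (-1.46, standard error 0.59). Mylip, Ppard and Nr1h3 were chosen for naming after their values were seen. Nr1h3 was 6.72, 5.69 and 15.9 CPM in controls and 3.68 and 3.18 with DMHCA, opposite to Abca1.

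In the machinery that turns receptor binding into engulfment, 11 of 16 genes were higher (median 0.18), against 48% of all genes, and 3 had an unadjusted p under 0.05, all higher, against 3.53% of all genes. Elmo1, a scaffold that activates Rac during engulfment, was 57.2, 65.9 and 49.9 CPM in controls and 103 and 109 with DMHCA (log2 fold change 0.88, standard error 0.24, adjusted p = 0.644 by edgeR). The kinase gene Abl1 had 0.78 (standard error 0.30), and Dock1, the partner of Elmo1, named after its value was seen, had 0.94 (standard error 0.39). Genes of phagosome maturation lay evenly (8 of 17 higher, median -0.01, 0 with an unadjusted p under 0.05), and their lowest p-values belonged to Uvrag (0.64, standard error 0.36) and to Cybb, a subunit of the phagocyte oxidase (-0.38, standard error 0.28).

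By edgeR on counts, all 14 tested genes of other bridging molecules and proposed TAM ligands had a log2 fold change below 0. Their median was -0.62, where 48% of all genes were above 0. An unadjusted p under 0.05 with DMHCA lower, which 4.08% of all genes had, belonged to 4 of them, Mfge8, Anxa1, Sftpd and Anxa5, the last pair named after their values were seen. Sftpd was 12.9, 10.9 and 57.9 CPM in control libraries 1, 2 and 3 and 0.867 and 1.69 with DMHCA. Mfge8, a milk fat globule protein of the luminal epithelium that bridges phosphatidylserine to integrins, was 3727, 2082 and 3295 CPM in controls and 556 and 712 with DMHCA (-2.26, standard error 0.45). Anxa1, a phospholipid-binding protein, was 264.9, 391.9 and 382.5 CPM in controls and 120.2 and 70.4 with DMHCA (-1.86, standard error 0.38). The adjusted p of each was 0.644 by edgeR, and the study had singled out both on these libraries. Of 20 other engulfment receptors 15 were lower (median -0.17) and 1 was higher with an unadjusted p under 0.05, a share near the 3.53% of all genes. It was Cd93, at 23.7, 26.3 and 28.5 CPM in controls and 39.7 and 46.3 with DMHCA (0.72, standard error 0.24). Endothelium also expresses Cd93, and of 7 blood endothelial markers, 7 of which were tested, 4 were higher, 3 of them without overlap (13.8% of all genes) and 1 with an unadjusted p under 0.05. The other 3 were lower. The 7 markers summed to 46.8 to 64.9 TPM in controls and 64.2 to 74.7 TPM with DMHCA. Pecam1 and Emcn, the most abundant of the 7, overlapped between groups. Pecam1 was 13.9 to 30.4 TPM in controls and 22.3 to 22.7 TPM with DMHCA. Emcn was 10.06 to 16.05 TPM in controls and 11.6 to 13.6 TPM with DMHCA. Cdh5 defines endothelium and was named after its value was seen. It was 6.30 to 9.63 TPM in controls and 13.2 to 17.4 TPM with DMHCA. The part of endothelium in the Cd93 difference was not tested. Havcr1, which encodes Tim-1, was lower with -3.00 (standard error 1.27), and was highest in control library 3.

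Of 8 signals that forbid engulfment 6 were lower and 2 higher (median -0.49), and before adjustment 2 lower and 1 higher had a p under 0.05, against 4.08% and 3.53% of all genes. Cd47, the best known of them, was 102, 87.5 and 149 CPM in controls and 61.6 and 56.0 with DMHCA (-0.94, standard error 0.32, adjusted p = 0.644 by edgeR). Cd24a, another, was 317, 213 and 367 in controls and 526 and 540 with DMHCA (0.83, standard error 0.33). Siglecg, a sialic acid receptor of B cells named after its value was seen, was also lower (-4.51, standard error 1.86), with 16.9 CPM in control library 3 and overlapping groups. Among genes of phosphatidylserine exposure and find-me signals 0 of 13 had an unadjusted p under 0.05, with S1pr1 (-0.97, standard error 0.62) among the nearest to it. Of 12 genes for the shedding, feedback and vitamin K chemistry of TAM signalling, 6 were higher and 6 lower, and 1 (8.33%) had an unadjusted p under 0.05, a share near the 7.61% of all genes. It was Socs3, a cytokine signalling inhibitor that TAM receptors induce, which was lower at -1.02 (standard error 0.28), while Pik3r1 was at -0.52 (standard error 0.42).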

How the data were processed

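RNA of 6 libraries (3 control, 3 DMHCA) was analysed. The authors checked reads with FastQC 0.11.9, trimmed adapters with Cutadapt 2.9 and counted paired-end reads with RSEM 1.3.1 with Bowtie2 2.4.1 as aligner and GRCm38 (mm10, Ensembl) as genome. They deposited, per library, RSEM's expected counts of 55385 genes, not normalized, which were rounded here to whole numbers. The deposited TPM values were made by RSEM and sum alike in every library, the deposited FPKM values were not used in the text, and RSEM's other deposited columns hold lengths in bases. Reads were divided between similar transcripts by RSEM, so lengths and TPM carry its estimates.

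DMHCA libraries 1 and 3 were summed (TPM averaged) under a rule that took a coefficient of variation under 0.1 and more than 5 times below every other pair. The count test was that of edgeR 4.0.16, run in R 4.3.3 (TMM, filterByExpr with a minimum count of 10 and total of 15, quasi-likelihood F-test, Benjamini-Hochberg adjustment over 19427 genes). Each standard error was taken from the F statistic, as the size of the log2 fold change over √F. Shares and lengths were compared by two-sided exact permutation of samples. Alternatives were DESeq2 1.42.0, limma 3.58.1 on log2(TPM + 1) and log2(TPM + 0.1), other filters, scaling and dispersions, a replicate block and each library left out.

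The 10 genes and all lists (8 of the pathway, 13 of cell type markers) were chosen with earlier results of these data known. Of each pathway list the 2 genes with the smallest p were named, of each marker list those with the highest TPM where a result touches them, and for each gene tested the 3 nearest listed genes by log2(CPM + 0.1). A few genes that these rules name are not reported here. Of the genes counted, 99.6% were found in GENCODE M21 (GRCm38), the source of coordinates. Deviations from group means correlated at -0.0585, 0.342 and 0.359 between libraries with equal replicate numbers. Unequal numbers gave -0.39 to 0.346. Since DMHCA libraries 1 and 3 are nearly identical, these values cannot settle whether the numbers pair the libraries.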

Additional observations from a re-analysis of the deposited data

How the results depend on the processing

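Each of the 9 genes tested kept an adjusted p above 0.05 in every alternative run, except Tyro3 with DESeq2 on the 6 libraries (1.67, adjusted p = 0.0351). Tyro3 and Gas6 kept their direction in 16 of 16 alternatives. Tyro3 lost its unadjusted p under 0.05 without control library 2 (log2 fold change 1.14) and on log2(TPM + 1) (1.42). Leaving out 1 library at a time, log2 fold changes stayed above 0 for Gas6 (0.11 to 0.54) and Stab1 (0.08 to 0.45). They ran from -0.30 to 0.10 for Axl, -0.35 to 0.27 for Mertk, -0.83 to 0.25 for Pros1, -2.55 to 0.49 for Timd4, -2.70 to 0.07 for Stab2 and -1.63 to 0.61 for Megf10. Other turns of sign were those of Pros1 with the 6 libraries in edgeR (-0.25) and DESeq2 (-0.23), with DESeq2 size factors (-0.01) and a minimum count of 50 (-0.05), of Axl (0.06 and 0.07), Mertk (0.03 and 0.08) and Stab1 (-0.25 and -0.26) on log2(TPM + 1) and log2(TPM + 0.1), and of Mertk (0.03) and Pros1 (-0.36) with the replicate block; the cause was not tested.

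Genes with an adjusted p under 0.05 numbered 244 and 846 with DESeq2 on 5 samples and 6 libraries and 16 without a filter on low counts, against 0; leaving out libraries gave 0 to 0. Unadjusted, 1478 genes became 2912 with edgeR on the 6 libraries, 2370 and 3652 with DESeq2 on 5 and 6, 2808 without a filter and 918 to 1800 with libraries left out. Of the genes described, DESeq2 on the 6 libraries gave 1 an adjusted and 2 an unadjusted p under 0.05, limma on log2(TPM + 1) gave 0 unadjusted and leaving out libraries 0 to 1. Pathway genes with an unadjusted p under 0.05, 17 in all, became 10 to 20 with libraries left out (10 without control library 3), 25 and 24 with edgeR and DESeq2 on the 6 libraries and 21 without a filter. The labels do not give the replicate numbers as pairs. With these numbers as a replicate block, 3207 genes and 27 pathway genes had an unadjusted p under 0.05. After adjustment 0 genes did, and the log2 fold change of Tyro3 was 1.62. Leaving out libraries gave differences in share of 18.9 to 29.3 percentage points for Tyro3 and -24.8 to -15.3 for Axl. The extremes 29.3 and -24.8 came without DMHCA library 2, where 1 DMHCA sample is left. In the edgeR fit without that library, the 1 DMHCA sample is assumed to vary like the controls. Reads under 20 per library, as for Adgrb1 and, outside control library 3, Stab2, limit what could be compared.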
